A study of Mus musculus with 11 samples.

Results

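The genes of the proteasome, the cell's main protease for proteins tagged with ubiquitin, were followed in the livers of 11 male mice of a mixed background, measured on 1 oligonucleotide array per mouse. Probe sets were taken by platform symbol, from Psma, Psmb, Psmc, Psmd, Psme and Psmf, without the interferon-induced Psmb8, Psmb9 and Psmb10. This gave 78 of 22690 probe sets, of which 75 carried the single symbol of a subunit or partner and stood for 39 genes. Another 2 belonged to Psmc3ip and Psme3ip1, which are not proteasome subunits, and 1 was listed under both Psme2b and Psme2, so these 3 stayed out of the counts. The first group, DH, held 4 mice that carried the Akt1 double transgene, ate the high-fat diet and were marked positive for muscle hypertrophy. Group CH held 4 wild-type mice on the high-fat diet, and group CN 3 wild-type mice on the control (normal) diet, neither with hypertrophy. All 11 mice received doxycycline for 3 weeks, so the wild-type controls were given the drug as well. The labels used here give neither the age of the mice nor the promoter that drives the transgene.

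The proteasome is a barrel closed by caps. The barrel, or core particle, is built of outer rings of alpha subunits, which gate the entrance, and inner rings of beta subunits, of which Psmb5, Psmb6 and Psmb7 cut peptide bonds. The cap, or regulatory particle, has a base with a ring of ATPases that unfold the substrate and a lid that removes its ubiquitin chain. Other caps, the activators of the Psme family, open the barrel without ubiquitin, and chaperones join the base during assembly and then leave. Subunit genes are known to be transcribed in a coordinated way, with the transcription factor NFE2L1 raising them when proteasome activity falls short, and in liver the proteasome clears short-lived enzymes and proteins exported from the endoplasmic reticulum.

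Each value is the authors' array signal, a brightness scaled per array, and differences are log2 differences between group means with limma's moderated standard error (SE). For each gene the brightest probe set was used. Of the 39 genes, 38 were bright enough to be tested among 7924 genes in all, and 62 of the 75 probe sets passed the same limit, a signal of about 53.0. The exception was Psma8, the alpha subunit made in germ cells, whose only probe set had signals of 24.2, 1.7, 4.3 and 52.5 in DH, of 12.6, 17.6, 34.8 and 27.3 in CH, and of 30.9, 37.4 and 2.3 in CN. These values lie at the dim end of the arrays and overlap between all 3 groups.

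Array DH 3 stood apart from the rest. Its poly-A spike controls averaged a signal of 126 over 24 probe sets, against 310.0 to 525 on the other 10 arrays, its Gapdh 3'/5' ratio was 0.823, against 0.669 to 0.768, and its mean Spearman correlation with the others was the lowest, 0.940. DH 3 and DH 4 also had the brightest single signals, 42426 and 43273, against 27779.5 to 35450.1 on the other 9 arrays. The sum of 6 hepatocyte marker signals was 146022, 144706, 189746 and 194332 in DH 1 to DH 4, against 139427 to 161146 in CH and 121442 to 144573 in CN. Kupffer cell and macrophage markers summed to 3948 to 11007 in DH, with DH 3 lowest and DH 2 highest, against 3326 to 7256 in CH and 2325 to 4405 in CN. None of 4 skeletal muscle markers passed the limit for dim probe sets. In whole liver, fewer cells of a type and less RNA per cell cannot be told apart.

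The transgenic mice on the high-fat diet (DH) were first set against the wild-type mice fed that diet (CH), a comparison that asks what differs in the liver with the transgene under a fat load. None of the 38 proteasome genes passed an adjusted p of 0.05, where 0.366% of all genes tested (29) did. At an unadjusted p under 0.05 in limma's test, 3 were higher (Psmc5, Psme1 and Psmd9; 6.95% of all genes were higher) and 1 was lower (Psmc2; 6.74% of all genes were lower). The smallest adjusted p among them was 0.142. All DH arrays lay above all CH arrays for 4 genes, the same 3 and Psmf1, where 4.32% of all genes had such a gap, and below all of them for 0, against 4.09%. The median log2 difference was 0.009 over the 39 genes, against 0.001 over all genes tested. The size of the difference, without its sign, had a median of 0.099 over the 39 genes and 0.169 over all genes tested.

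In the outer rings of the core particle, DH and CH mice differed by -0.139 to 0.33 log2 units over the 7 tested alpha genes, with 0 at an unadjusted p under 0.05. Psma1 had signals of 2535, 2636, 3503 and 2796 in DH, against 2519, 2652, 2400.5 and 2316 in CH and 2164, 2343 and 2734 in CN. The DH arrays overlap with those of CH and CN, and DH 3 lies highest. Its difference between DH and CH was 0.20 ± 0.12 (SE; limma adjusted p = 0.465). Psma2 ran the other way, with 2269, 2134, 2525 and 2225 in DH, against 2416, 2577, 2704 and 2373 in CH and 2773, 2565 and 2591 in CN, a DH minus CH difference of -0.139 ± 0.0851 (limma adjusted p = 0.507). Every DH array of Psma2 lay below every CN array, the closest pair being 2525 in DH and 2565 in CN. The largest point estimate, 0.33 for Psma6, had an SE of 0.22 and was led by DH 3, where the signal was 6349, against 2941 to 4186 on the other DH arrays and 2926 to 3928 in CH. Another Psma6 probe set of like brightness was at 0.065 ± 0.114, with 3277, 3308, 4546 and 4112 in DH, against 3240.4 to 3853 in CH. Psma3, Psma4, Psma5 and Psma7, the remaining members of the gate ring, lay between -0.118 and 0.029.

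In the inner rings, which hold the active sites, the 7 beta genes had the narrowest range of all classes with more than 3 genes, -0.081 to 0.109 log2 units between DH and CH. Psmb5, the chymotrypsin-like subunit on chromosome 14, had signals of 2406, 2076, 2508 and 2019.6 in DH, against 2461, 2350.5, 2205 and 2197 in CH and 2254, 2156 and 2338 in CN. Its groups overlap throughout, and the difference between DH and CH was -0.037 log2 units with a 95% interval of -0.241 to 0.167. Psmb6, the caspase-like subunit on chromosome 11, had 2324, 1949, 2562 and 2517 in DH, against 2467, 2239, 2382 and 2344 in CH and 2278, 2385 and 2686 in CN. DH 2 was the lowest of all 11 arrays here, and the difference was -0.020 (95% interval -0.242 to 0.203). Psmb7, the trypsin-like subunit on chromosome 2, had 7207, 6615, 7156 and 6330.5 in DH, against 7301, 6741, 7507 and 7326 in CH and 6662, 7023 and 7125 in CN, a difference of -0.081 (95% interval -0.250 to 0.087). For these 3 catalytic genes the whole interval lay within 1.5-fold of no change. Among the structural beta genes, Psmb4, with 5740.3, 4904, 6987 and 6487 in DH, against 5124, 5571, 6145 and 5374 in CH and 5485, 5691 and 5949 in CN, differed by 0.109 ± 0.111 (limma adjusted p = 0.700), while Psmb1, Psmb2 and Psmb3 lay between -0.023 and 0.099.

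Among the 6 ATPases of the base, Psmc5 and Psmc2 had the smallest p values of the class and opposite signs. Psmc5, on chromosome 11, had signals of 1457, 1483, 2045 and 2068 in DH, against 1329, 1078, 1159 and 1335 in CH and 1406, 1132 and 1326 in CN. All 4 DH arrays lie above all 7 wild-type arrays, and DH 3 and DH 4 are far above DH 1 and DH 2. The mean signal was 1763 ± 339 in DH and 1225 ± 128 in CH (SD, n = 4 each), a log2 difference of 0.51 ± 0.14 (SE), which is 1.42-fold between geometric means (limma adjusted p = 0.142). Without DH 3 and DH 4 the difference was 0.27 (limma adjusted p = 0.515). Without DH 1 and DH 2, a setting added after the data were seen, it was 0.75 (limma adjusted p = 0.0309). DH 1 and DH 2 are the lowest DH arrays of Psmc5, so leaving them out had to raise the difference. That adjusted p is therefore no support for it. Psmc2, on chromosome 5, had 2467, 2998, 2864 and 2425 in DH, against 2869, 3172, 3566 and 3232 in CH and 3208, 3420.3 and 3406 in CN. Every DH array was below every CN array, and 1 of the 4 CH arrays fell within the DH range. The mean was 2689 ± 286 in DH and 3209.7 ± 286 in CH (SD, n = 4 each), a log2 difference of -0.257 ± 0.0987 (limma adjusted p = 0.277). A second Psmc2 probe set of like brightness did not show it: its signals were 2258, 2904, 3578 and 3573 in DH, against 2609.5, 2971, 3872 and 2849 in CH, a difference of -0.007 ± 0.157. With the mean of its probe sets the gene's difference was -0.132. The other ATPases, Psmc1, Psmc3, Psmc4 and Psmc6, lay between -0.158 and 0.138.

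The 3 other base genes had small differences of 1 sign between DH and CH. Psmd2, a scaffold of the base, had 2266.5, 2129, 2867 and 2502 in DH, against 2266.4, 2108, 2214 and 2189 in CH and 2094, 1981 and 2109 in CN. DH 3 and DH 4 lie clearly above all CH arrays, DH 1 is level with the highest CH array and DH 2 lies among them, for a difference of 0.145 ± 0.0977 (limma adjusted p = 0.541). Psmd1, the other scaffold, had 1530.0, 1400.5, 2386 and 1895 in DH, against 1551, 1395, 1665 and 1727 in CH and 1446, 1532 and 1608 in CN, a difference of 0.160 ± 0.150 (limma adjusted p = 0.676). The same arrays, DH 3 and DH 4, lead. Without them Psmd1 was at -0.109. Psmd4, a receptor that binds ubiquitin chains, differed by 0.079 ± 0.170.

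In the lid, all 8 differences between DH and CH lay between -0.087 and 0.162, 3 of them above 0. Psmd14, the enzyme that cuts ubiquitin chains off the substrate, had 1414, 1331, 2130.4 and 1749 in DH, against 1585, 1444, 1397 and 1398 in CH and 1090.4, 1589.5 and 1384 in CN. Its difference was 0.162 ± 0.156 (limma adjusted p = 0.682), and -0.084 without DH 3 and DH 4. Psmd7, the partner of Psmd14 in the lid, was steadier, with 1262, 1159.5, 1234 and 1140.3 in DH, against 1178, 989.9, 1199.5 and 1094 in CH and 969, 1161 and 1201 in CN, a difference of 0.107 ± 0.101 (limma adjusted p = 0.680). Psmd13 had the widest interval of the 38 genes in this comparison, -0.562 to 0.388, with DH signals of 486, 507, 1111 and 719.9, against 639.9 to 769 in CH, and its dimmer probe set was at 0.133 ± 0.113. Psmd3, Psmd6, Psmd8, Psmd11 and Psmd12, the lid's scaffold subunits, lay between -0.086 and 0.028.

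Among the assembly chaperones of the base, Psmd9 was higher at an unadjusted p under 0.05 and its companions were not. It had signals of 773, 751, 1439 and 830.5 in DH, against 576, 746, 729 and 664 in CH and 718, 691 and 830.2 in CN. All DH arrays lie above all CH arrays, but the lowest DH array and the highest CH array are only 751.3 and 746.2, and DH 3 is far above the other 10 arrays. The mean was 949 ± 329 in DH and 679 ± 77.0 in CH (SD, n = 4 each), a log2 difference of 0.435 ± 0.19 (limma adjusted p = 0.337). Without DH 3 it was 0.22 (limma adjusted p = 0.518). A second, dim Psmd9 probe set had 30.9 to 97.9 in DH and 7.8 to 89.8 in CH, and its difference was 0.21 ± 0.68. Psmd10, a chaperone also known as the oncoprotein gankyrin, had 359.6, 412, 283 and 319 in DH, against 309.5, 402, 333 and 303 in CH and 283, 357 and 374 in CN, with DH 3 the lowest DH array. Its difference was 0.023 ± 0.152, and that of Psmd5 was -0.003 ± 0.145.

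Of the activators and the inhibitor, Psme1 and Psmf1 had DH arrays above all CH arrays. Psme1, on chromosome 14, encodes a subunit of the interferon-induced activator cap and had signals of 1982, 2195, 2748 and 2706 in DH, against 1846, 1863, 1729 and 1798 in CH and 1737, 2538 and 2033 in CN. CH was the tightest group here, and the CN arrays reach into the range of DH. The mean was 2408 ± 379 in DH and 1809 ± 59.9 in CH (SD, n = 4 each), a log2 difference of 0.40 ± 0.13, or 1.32-fold between geometric means (limma adjusted p = 0.219). Without DH 3 and DH 4 it was 0.21 (limma adjusted p = 0.627). The probe set listed under both Psme2b and Psme2, where Psme2 encodes the partner of Psme1 in the cap, had 1517, 1884, 1766 and 1673 in DH, against 1545, 1888, 1567 and 1247 in CH and 1227, 1913 and 1561 in CN, overlapping groups that were not tested. Psmf1, on chromosome 2, encodes an inhibitor of the core particle in the test tube and had 829.9, 839, 837 and 836 in DH, against 688, 694, 808 and 763 in CH and 701, 696 and 569 in CN. The 4 DH signals lie within 9.4 units of each other, all above the 7 wild-type arrays, and the difference from CH was 0.18 ± 0.10 (limma adjusted p = 0.451). Its 2 dimmer tested probe sets gave -0.039 and -0.073, with DH and CH arrays overlapping, and with the mean of probe sets the gene was at 0.023. Psme3 and Psme4, which encode activator caps found in the nucleus, were at -0.147 ± 0.143 and -0.116 ± 0.0983, and the other 2 probe sets of Psme4 at -0.216 and -0.358.

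**Figure D1:**
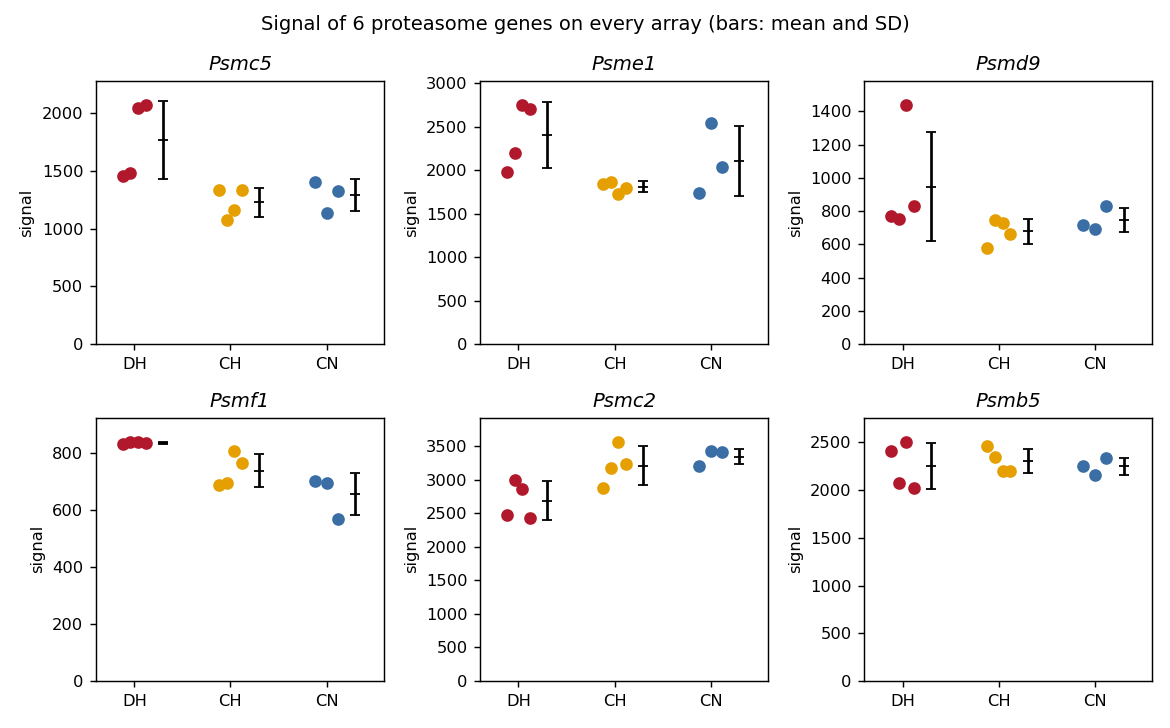
Array signal (linear axis from 0) of 6 proteasome genes by group: DH (transgenic, high-fat diet, n = 4), CH (wild type, high-fat diet, n = 4) and CN (wild type, normal diet, n = 3). Points are single mice, and the bar beside each group is the mean with its SD. Psmc5 and Psmf1 have all DH points above all CH and CN points, Psmd9 rests on a single DH point at 1439, and the catalytic Psmb5 overlaps in all groups.

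The high-fat diet alone was then judged in wild-type mice, CH against CN. Not 1 of the 38 proteasome genes passed (limma; 0% of all genes tested did), and none had an unadjusted p under 0.05, where 3.92% of all genes were higher and 3.09% lower at that level. The smallest adjusted p was 0.804. CH arrays lay above all CN arrays for 2 genes, Psmc3 and Psmb1, where 4.58% of all genes had such a gap, and below them for 0, against 3.33%. The median log2 difference was 0.009 over the 39 genes and 0.007 over all genes tested, and its size without sign was 0.071 and 0.145. For 36 of the 38 genes the 95% interval of the diet difference lay within 1.5-fold of no change in either direction, against 51.8% of all genes tested, and for all 38 it lay within 1 log2 unit, against 84.1%. The corresponding counts between DH and CH were 34 within 1.5-fold, against 53.1% of all genes, and 38 within 1 log2 unit, against 83.9%. The members are bright genes, with a median signal of 2155 and a within-group SD of 0.147 log2 units (median over genes), against 375 and 0.245 for all genes tested. Brightness was not adjusted for in these shares.

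Psmc3, an ATPase of the base, had the smallest p of its class for diet, with signals of 2014, 2000.2, 2036 and 1859 in CH and 1619, 1813 and 1702 in CN, beside 1884, 1885, 2663 and 2361 in DH. The closest CH and CN arrays are 1858.6 and 1812.7, and the difference was 0.21 ± 0.13 (limma adjusted p = 0.804). Psmb1, a structural beta subunit, had 3203, 3231, 3287 and 3128 in CH and 3117, 2747 and 3066 in CN, which do not overlap by a margin of 3128.0 over 3116.9. Its DH signals of 3197.5, 2801, 3332 and 3348 reach beyond the CH range on both sides. Its difference was 0.112 ± 0.0919 (limma adjusted p = 0.875). Psma7, of the gate ring, had 2411, 2262, 2454 and 2529 in CH and 2052, 2312 and 2272 in CN, beside 2154, 2006, 2908 and 2899 in DH. Its CH minus CN difference was 0.127 ± 0.136, and that of a second probe set of like brightness 0.009 ± 0.128. Psmd3, of the lid, had 816, 814, 873 and 921 in CH and 724, 819 and 779 in CN, beside 826, 697, 971 and 752 in DH, a CH minus CN difference of 0.145 ± 0.122. In both genes the CH and CN arrays overlap. Psme1 had the lowest value among the activators, -0.200 ± 0.145, with 2 of the 3 CN arrays above the narrow CH group. The catalytic genes Psmb5, Psmb6 and Psmb7 differed by 0.033, -0.053 and 0.057 for diet, and their 95% intervals ran from -0.187 to 0.253, -0.292 to 0.187 and -0.125 to 0.239.

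**Figure D2:**
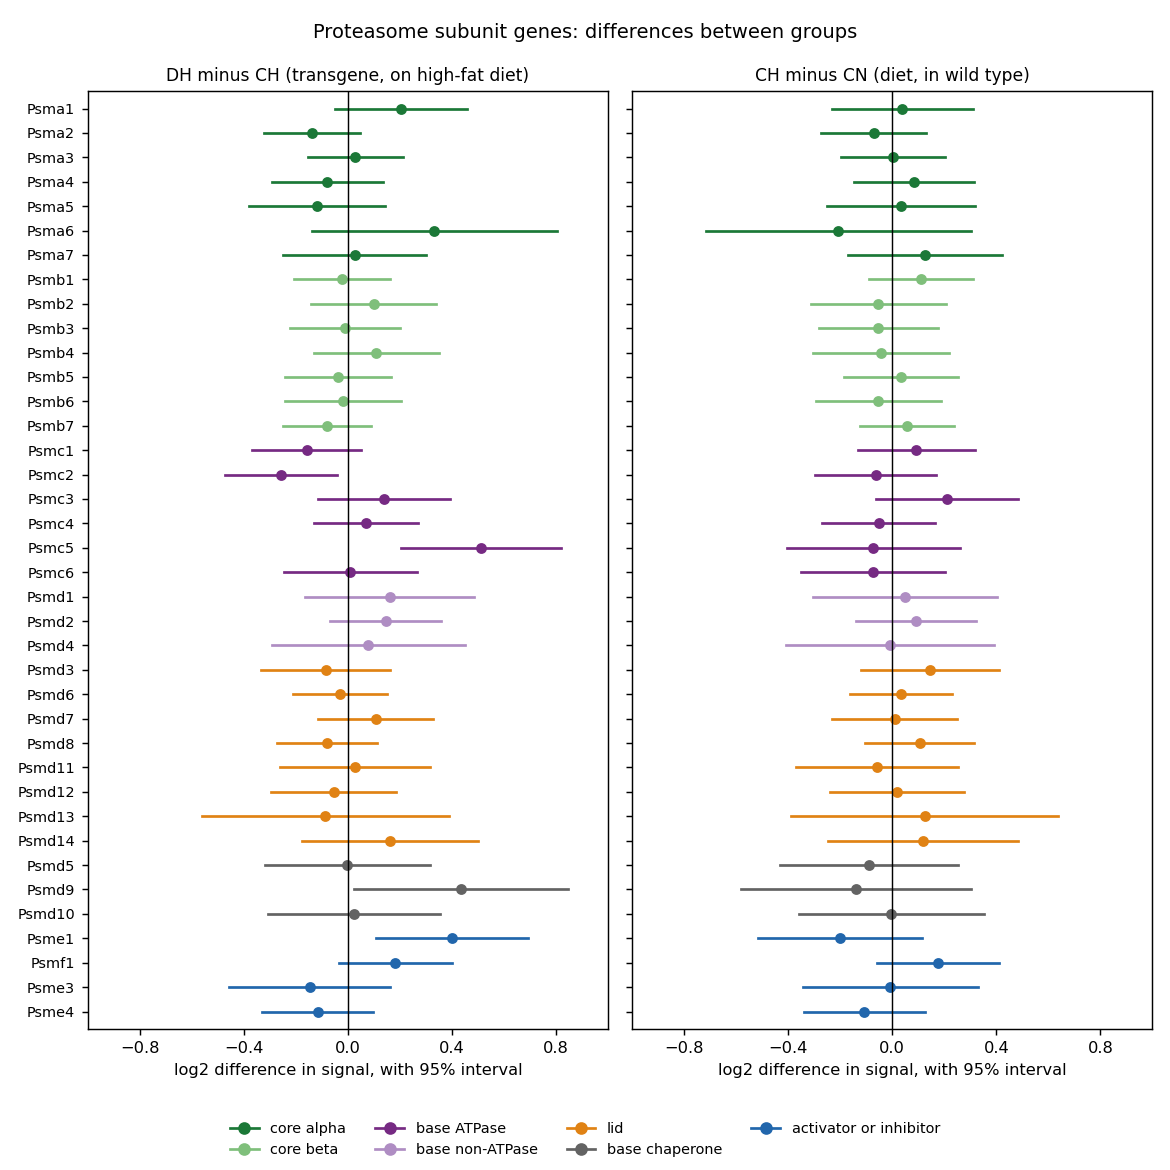
Log2 difference in signal with its 95% interval (limma) for the 38 tested proteasome genes, DH minus CH on the left and CH minus CN on the right, coloured by class. On the left the intervals of Psmc5, Psme1 and Psmd9 lie above 0 and that of Psmc2 below it, on the right every interval covers 0, and in neither comparison did a gene pass after adjustment over all genes.

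DH mice were also set against CN mice, which differ in both transgene and diet. This comparison shares its arrays with the others and adds no independent evidence. None of the 38 genes passed (2.08% of all genes tested, 165, did). At an unadjusted p under 0.05 in limma's test, 4 were higher (Psmf1, Psmc5, Psmc3 and Psmd2, against 9.96% of all genes) and 2 lower (Psmc2 and Psma2, against 8.35%), and the arrays of these same 6 genes did not overlap, against 8.46% of all genes higher and 7.1% lower. Psmf1 had the smallest adjusted p, 0.114, with a mean signal of 835.5 ± 3.98 in DH (SD, n = 4) and 655 ± 74.8 in CN (SD, n = 3), a log2 difference of 0.36 ± 0.11. Psmc3 was at 0.35 ± 0.13 and Psmd2 at 0.235 ± 0.11, while Psmc2 was at -0.32 ± 0.11 and Psma2 at -0.21 ± 0.0919. The second Psmc2 probe set was at 0.097 ± 0.170 here, its CN signals of 2699 to 3003 lying within the DH range of 2258 to 3578. The limma adjusted p of these 4 genes lay between 0.144 and 0.263. Over the 39 genes the median was 0.025, against 0.004 over all genes tested. The 95% interval lay within 1.5-fold of no change for 32 of the 38 genes, against 44.4% of all genes, and within 1 log2 unit for 38, against 78.6%.

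The core particle and the regulatory particle were compared on every array by the mean, over their genes, of the log2 signal less its CN mean. Psma8 was left out here because its values near the background moved the core mean on its own: with it the core mean of DH 2 was -0.326, and without it -0.133. The 14 other core genes then stood at -0.030, -0.133, 0.206 and 0.042 in DH 1 to DH 4 and at -0.006, -0.008, 0.035 and -0.019 in CH 1 to CH 4. The 17 regulatory genes stood at -0.059, -0.097, 0.334 and 0.132 in DH and at 0.059, -0.065, 0.064 and 0.099 in CH. Both particles were thus low on DH 2 and high on DH 3, and the 4 DH arrays cover a wider range than the 4 CH arrays in each. The SD of the regulatory mean was 0.198 in DH and 0.0719 in CH, and that of the core mean 0.142 in DH and 0.0240 in CH (n = 4 each). The mean over all genes tested moved little, from 0.005 to 0.085 over the DH arrays, with DH 2 highest.

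The balance between the particles, core less regulatory, was 0.029, -0.036, -0.129 and -0.090 in DH and -0.065, 0.057, -0.029 and -0.118 in CH. The values overlap, and the group means differed by -0.018 log2 units, less than the SD of either group (0.0685 in DH and 0.0737 in CH). Without DH 3 and DH 4 the difference was 0.035. Between CH and CN the balance differed by -0.039, where CN had an SD of 0.0613, and between DH and CN by -0.056. With Psma8 counted, as the particle means were first defined, the 3 differences were -0.094 for DH minus CH, 0.003 for CH minus CN and -0.091 for DH minus CN. No test was made of these means, since the members were chosen with results known.

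Within the transgenic group, most proteasome genes had their highest and lowest signals on the same arrays. Of the 39 genes, 26 had their highest DH signal on DH 3, which is 66.7%, against 25.7% of all genes tested, and 21 had their lowest on DH 2, 53.8%, against 22.0%. All 3 base genes that are not ATPases (Psmd1, Psmd2 and Psmd4), 7 of 8 lid genes, 6 of 8 alpha genes and 5 of 7 beta genes were highest on DH 3, but 3 of 6 ATPases, 1 of 3 chaperones and 1 of 4 activators or inhibitors were. In CH, 19 of 39 genes (48.7%, against 27.3% of all genes tested) were lowest on CH 2, 12 of the 17 regulatory genes among them. In CN, 20 of 39 (51.3%, against 29.9%) were lowest on CN 1. DH 3 is the array with the low spike signal and the high Gapdh ratio, DH 3 and DH 4 had the highest sums of hepatocyte markers, and DH 2 the highest sum of Kupffer cell markers. The part of these in the array pattern was not tested.

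**Figure D3:**
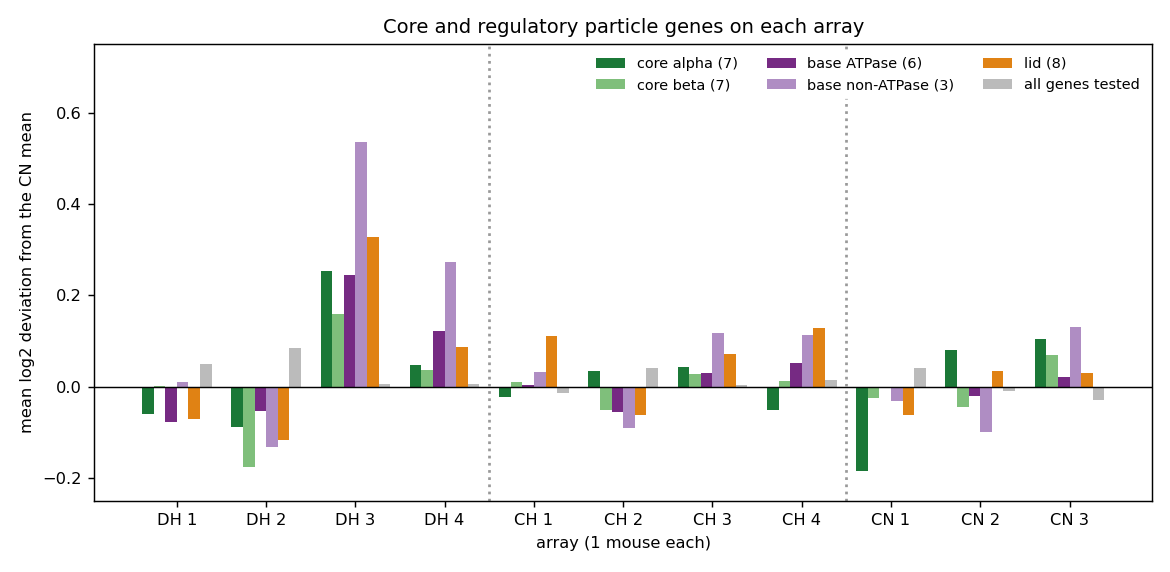
Mean log2 deviation from the CN mean on each of the 11 arrays, as bars from 0, for core alpha genes (without Psma8), core beta genes, base ATPases, the other base genes, lid genes and all genes tested in grey. DH 3 has the highest bars in all 5 proteasome classes and DH 4 is next in the base, DH 2 lies below 0 in all 5, and the bars of all genes stay between -0.030 and 0.085.

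Several probe sets of a gene did not always move together. Over the 62 probe sets of these genes that were tested among 12526, 0 passed in each comparison in limma's fit (of all probe sets 48 passed between DH and CH, 0.383%, 0 between CH and CN, 0%, and 240 between DH and CN, 1.92%), with smallest adjusted p of 0.139 for DH minus CH, 0.542 for CH minus CN and 0.121 for DH minus CN. At an unadjusted p under 0.05, 3 were higher and 2 lower between DH and CH (7.35% and 6.27% of all probe sets were), 3 were higher and 0 lower between CH and CN (3.72% and 3.23%), and 8 were higher and 2 lower between DH and CN (9.8% and 7.88%). The 3 for diet were dimmer probe sets of Psmf1 and Psma6. For Psmf1 these had 215.8, 205.9, 255 and 260.4 in CH, against 165, 202 and 165 in CN, and 245, 231, 228 and 259 in CH, against 168, 195 and 148 in CN. In neither do the groups overlap, and the differences were 0.40 ± 0.15 (limma adjusted p = 0.654) and 0.50 ± 0.15 (limma adjusted p = 0.542), above the 0.175 of the brightest Psmf1 probe set. The dim Psma6 probe set had 228, 242, 140.4 and 165 in CH, against 104, 104 and 142 in CN, a difference of 0.71 ± 0.21 (limma adjusted p = 0.542), where the brightest one was at -0.208. Of 17 genes with more than 1 tested probe set, 9 had a single sign over all of them between DH and CH, 9 between CH and CN and 10 between DH and CN.

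The lid gene Psmd6 had a probe set whose signal fell into separate levels that cut across the groups. It read 1578, 136, 52.1 and 129 in DH, 1827, 86.4, 121 and 161 in CH, and 163, 1854 and 109 in CN. DH 1, CH 1 and CN 2 were thus high and the other 8 arrays low, 1 high array in each group. The brighter Psmd6 probe set stayed between 2071 and 2477 on all 11 arrays, and DH and CH differed there by -0.031 ± 0.0829. All mice are of a mixed background per the series' design, and no genotype at this gene is given in the sources used here. The differences of the split probe set, -0.27 ± 1.2 for DH minus CH and -0.45 ± 1.3 for CH minus CN, are set by which mice were high. The cause was not tested.

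**Figure D4:**
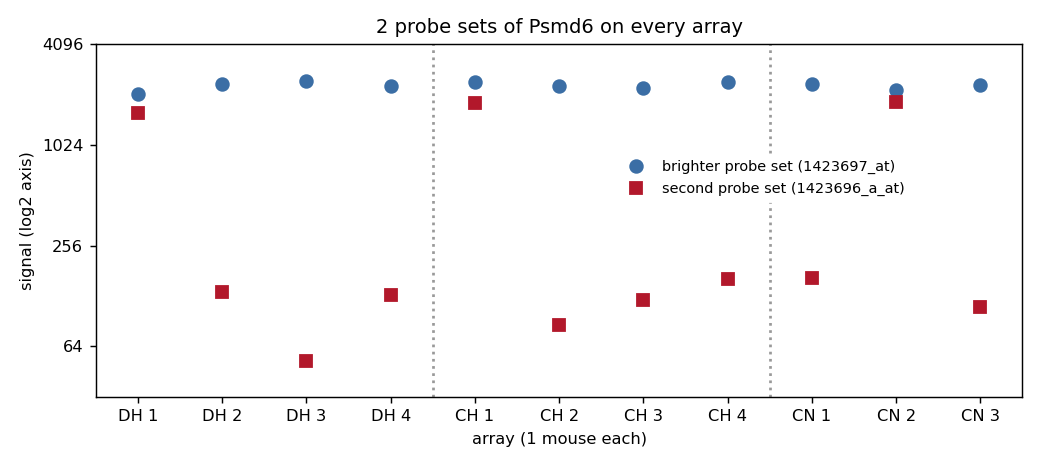
Signal of the 2 brightest Psmd6 probe sets (log2 axis) on each of the 11 arrays. The brighter one (circles) stays between 2071 and 2477, while the second (squares) is above 1500 on DH 1, CH 1 and CN 2 and under 170 on the other 8 arrays.

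The interferon-induced counterparts of the catalytic subunits were followed beside the constitutive ones. Of these counterparts 1 passed, in the comparison of DH with CN, where 2.08% of all genes passed. Psmb9, which replaces Psmb6 in the immunoproteasome, the form that cuts peptides for display to T cells, had signals of 636, 894, 720.3 and 833 in DH, against 481, 569, 425 and 467 in CH and 270.4, 462 and 199 in CN. All DH arrays lay above all wild-type arrays, where 4.32% of all genes had such a gap over CH and 8.46% over CN. The DH minus CN difference was 1.39 ± 0.24 (limma adjusted p = 0.0157) and passed, and the DH minus CH difference was 0.66 ± 0.22 (limma adjusted p = 0.215). The CH minus CN difference was 0.73 ± 0.24 (limma adjusted p = 0.622). Psmb9 thus differed between the 2 wild-type diet groups by about as much as between DH and CH. Psmb8, which replaces Psmb5, had 1109, 1119, 769.7 and 953 in DH, against 730.4, 872, 804 and 631 in CH and 511, 731 and 615 in CN, with DH 3 within the CH range, and differed by 0.67 ± 0.17 from CN (limma adjusted p = 0.0636) and by 0.37 ± 0.16 from CH (limma adjusted p = 0.317). Psmb10, which replaces Psmb7, had 1418, 1606, 552 and 1248 in DH, against 918, 1505, 1037 and 622 in CH and 679.7, 1034 and 728 in CN, with DH 3 the lowest of all 11 arrays.

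The log2 ratio of each interferon-induced gene to its constitutive counterpart, set to 0 at the CN mean, tested the difference itself. For Psmb9 over Psmb6 the ratio was 1.197, 1.943, 1.236 and 1.472 in DH, against 0.708, 1.091, 0.582 and 0.740 in CH and -0.008, 0.698 and -0.690 in CN. The DH arrays lay above all CH arrays, with a mean difference of 0.68 log2 units (exact two-sided permutation p = 0.0286, which is the lowest value possible with 4 arrays in each group, and adjusted p = 0.206 by Benjamini-Hochberg over the 9 ratio tests). Psmb8 over Psmb5 differed by 0.41 between DH and CH (exact permutation p = 0.0857, adjusted p = 0.206), and Psmb10 over Psmb7 by 0.285 (exact permutation p = 0.6, adjusted p = 0.629). Between CH and CN, Psmb9 over Psmb6 differed by 0.78 (exact permutation p = 0.114, adjusted p = 0.206). There Psmb8 over Psmb5 differed by 0.266 (exact permutation p = 0.229, adjusted p = 0.294). Psmb10 over Psmb7 differed there by 0.224 (exact permutation p = 0.629, adjusted p = 0.629). The 9 tests were added after the values were seen. As the two-sided p was computed here, the smallest exact p for 4 arrays against 3 is 0.0571. With p values computed in this way, no ratio could pass 0.05 after adjustment over 9 tests. Another definition of the two-sided p can have a lower smallest value. Of 8 other interferon-responsive genes none passed between DH and CH, 3 were higher at an unadjusted p under 0.05 (Tap1, Irf9 and Irf7; 6.95% of all genes were) and 0 lower, and the median log2 difference of the list was 0.49, against 0.001 over all genes tested. Between DH and CN, Tap1, the peptide transporter of antigen presentation, rose by 1.12 ± 0.21 log2 units (limma adjusted p = 0.0222). There 3 of the 8 (Tap1, Tap2 and Irf9) were higher and 0 lower at an unadjusted p under 0.05, where 9.96% of all genes were higher. Tap1, Psmb8 and Psmb9 all lie on chromosome 17, and Psmb10 on chromosome 8, while the chromosome of Tap2 is not given here. The mice are of a mixed background, so genes that share a chromosome, such as these 3 on chromosome 17, may not be separate observations. A part of genotype in their values was not tested. Kupffer cell markers summed to higher values on DH 1, DH 2 and DH 4 (7291 to 11007) than on DH 3 (3948). Of 6 such markers tested, none passed between DH and CH, against 0.366% of all genes. Between DH and CN 1 passed, against 2.08% of all genes: Cd5l, a secreted macrophage protein, at 2.02 ± 0.46 (limma adjusted p = 0.0456). Cd5l was at 1.165 ± 0.458 for CH minus CN (limma adjusted p = 0.674) and at 0.857 ± 0.424 for DH minus CH (limma adjusted p = 0.402). Of 8 neutrophil markers 1 was bright enough to test, Prtn3, a granule protease, and it was higher in DH. Its mean signal was 604 ± 563 in DH, 19.3 ± 16.8 in CH (SD, n = 4 each) and 25 ± 15.6 in CN (SD, n = 3). The wild-type means were under the limit for dim probe sets. Prtn3 thus entered the test only through its DH signals, so the same values chose it and were tested. The log2 differences were 4.89 ± 0.75 for DH minus CH (limma adjusted p = 0.0317) and 4.47 ± 0.81 for DH minus CN (limma adjusted p = 0.0183). For that reason these p values are no independent support. The 8 neutrophil signals summed to 402 to 1851 in DH, with DH 2 highest, against 167.5 to 274 in CH and 152 to 238 in CN. Their part in the immunoproteasome values was not tested.

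**Figure D5:**
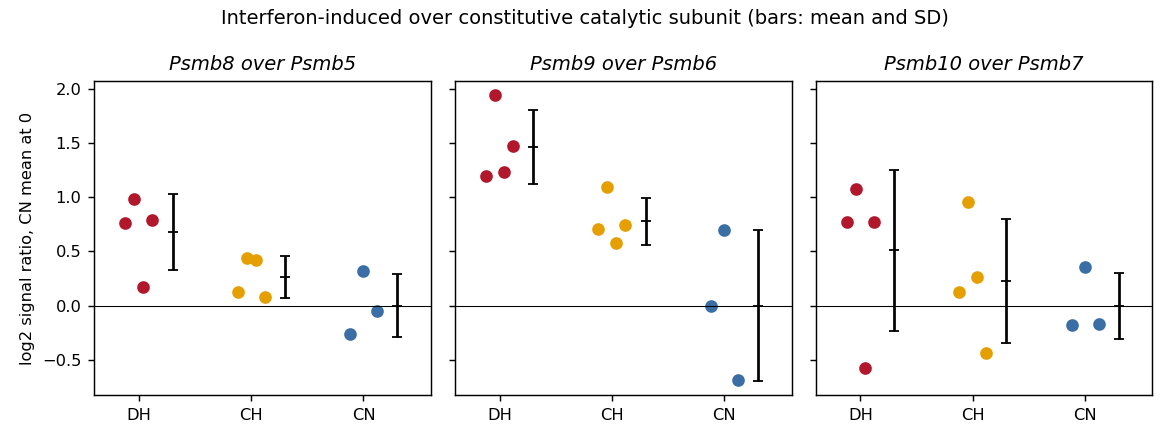
Log2 ratio of each interferon-induced catalytic gene to its constitutive counterpart, with the CN mean at 0, for DH (n = 4), CH (n = 4) and CN (n = 3). Points are mice and the bar is the mean with its SD. For Psmb9 over Psmb6 all 4 DH points (1.197 to 1.943) lie above all 4 CH points (0.582 to 1.091), while Psmb10 over Psmb7 overlaps across groups.

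Genes that build, serve or regulate the proteasome were examined as lists. Of 5 core assembly genes (Psmg1 to Psmg4 and Pomp), none passed in any comparison in limma's test. Psmg1, a chaperone of the alpha ring, was lower at an unadjusted p under 0.05 (6.74% of all genes were), at -0.199 ± 0.0822 between DH and CH (limma adjusted p = 0.311). Its DH arrays all lay below its CH arrays, as in 4.09% of all genes. Pomp, which guides beta ring assembly, was at -0.009 ± 0.101 between DH and CH. Of 5 genes whose products bind the regulatory particle, none passed. Between DH and CH 1 was lower at an unadjusted p under 0.05 (6.74% of all genes were), Sem1, a small lid protein, at -0.210 ± 0.0903. The list's median was -0.139. Usp14 and Uchl5, which trim ubiquitin chains at the cap, were at 0.030 ± 0.118 and -0.139 ± 0.103. Of 7 shuttling factors and VCP cofactors, 1 passed between DH and CN, against 2.08% of all genes. Ubqln4, which carries ubiquitinated proteins to the cap, fell there by 0.698 ± 0.151 log2 units (limma adjusted p = 0.0413). Ubqln4 was at -0.222 ± 0.139 for DH minus CH and at -0.476 ± 0.151 for CH minus CN (limma adjusted p = 0.519 and 0.606). Of 10 genes of endoplasmic reticulum associated degradation, which feeds the proteasome, 1 passed between DH and CN, against 2.08% of all genes. Sdf2l1, a chaperone component, rose there by 1.41 ± 0.32 (limma adjusted p = 0.0456) and was at 1.125 ± 0.29 for DH minus CH (limma adjusted p = 0.120). At an unadjusted p under 0.05 in limma's test, 2 of the 10 were higher and 1 lower between DH and CH (6.95% and 6.74% of all genes were). Between DH and CN 3 were higher and 1 lower (9.96% and 8.35% of all genes were).

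NFE2L1, the factor known to raise proteasome genes, and its relative NFE2L2, known for antioxidant genes, head a list of 5 regulators of which none passed. Nfe2l1 had signals of 548, 451, 616 and 472 in DH, against 514, 426, 519 and 541 in CH and 475, 389.7 and 513 in CN, overlapping in all groups, with a DH minus CH difference of 0.057 ± 0.136. Nfe2l2 had 1247, 1082, 1241 and 859.6 in DH, against 1457, 1479, 1415 and 1389.9 in CH and 1384, 1348 and 1989.5 in CN. Every DH array of Nfe2l2 was below every wild-type array, and the DH minus CH difference was -0.39 ± 0.15 (limma adjusted p = 0.267). Of all genes tested, 4.09% had all DH arrays below all CH arrays, and 7.1% below all CN arrays. Both factors bind the antioxidant response element, whose core reads TGACNNNGC. It was searched on both strands of the promoters of RefSeq genes (GRCm38.p6, from 250 bases before to 50 after the gene start), which held 34 promoters for 32 of the 39 proteasome genes. It was found in 6 of these genes (18.8%), Psmb5, Psmb6, Psmc6, Psmd9, Psmd12 and Psme4, against 14% of all genes with a promoter in the table, and in 17.6% of the proteasome promoters, against 12.4% of all 32851 promoters. The windows around the match follow for 5 of them. In Psme4 the match, on the opposite strand, begins 7 bases before the gene start and runs past it, so its window is not printed. Capitals mark the 9 bases of the match, written along the strand of the gene.
Psmb5, chr14:54618018-54618058, minus strand: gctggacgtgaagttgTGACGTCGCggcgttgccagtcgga
Psmb6, chr11:70525332-70525356, plus strand: ggcggactaaagagagTGACGGAGC
Psmd9, chr5:123228143-123228183, plus strand: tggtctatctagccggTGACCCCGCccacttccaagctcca
Psmc6, chr14:45329581-45329621, plus strand, match on the opposite strand: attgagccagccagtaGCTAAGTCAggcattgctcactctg
Psmd12, chr11:107479278-107479305, plus strand, match on the opposite strand: tctGCTGTGTCAcatttgcccccctcag
The match starts 47 bases before the gene start in Psmb5, 9 in Psmb6, 31 in Psmd9, 227 in Psmc6 and 247 in Psmd12. Between DH and CH the genes with a match were at -0.037 (Psmb5), -0.020 (Psmb6), 0.009 (Psmc6), -0.054 (Psmd12), -0.116 (Psme4) and 0.435 (Psmd9). Psmd9 was at 0.22 without DH 3. A link between the motif and these differences was not tested. A match of these letters is a description of the sequence and shows no binding.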

How the data were processed

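The authors deposited 1 intensity per probe set and array (signal), which is a MAS5 value (version not given in the sources used here) per the submitters' processing notes. Per the labels' protocols, total RNA was primed with poly-dT and biotin-labelled. Arrays had been scaled, with means of 500.251 to 500.285 after leaving out the lowest and highest 2%, and medians of 97.2 to 118, so no further scaling was applied. No detection calls were used, and the number of arrays limits the precision.

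From the deposited intensities, log2 values were computed after setting 1386 values under 1 to 1. Symbols came from the platform annotation. Of 22690 probe sets, 64 are controls, 691 carry more than 1 symbol and 1555 have no symbol. These were dropped, as was the dimmest 40% by mean log2 signal, and the brightest probe set stood for each gene. All 11 arrays entered one fit of limma (version 3.58.1, R 4.3.3), a mean per group with eBayes allowing for an intensity trend, two-sided, Benjamini-Hochberg adjusted over 7924 genes at 0.05; intervals are 95%. The code was tested on simulated data.

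The members, lists and settings were chosen with earlier results of these data known, so no list was tested. Named by rule with their array values were Psmb5, Psmb6, Psmb7, the 2 genes of smallest p per class in DH minus CH and the 1 of smallest p in CH minus CN. Other members (Psma6, Psma8, Psmd6, Psmd13) and further probe sets were added after their values were seen. The alternatives tried left out each array, DH 3 and DH 4 together or the dimmest 60%, dropped the filter, averaged probe sets, normalized by quantiles, added 32 before log2, changed eBayes (no trend, or robust), weighted arrays, fitted the compared pair alone, or added the replicate number as a block. Same-numbered arrays had deviations from their group means correlated by 0.0842 to 0.292 in DH and CH. In CH and CN the range was -0.0721 to 0.0287, and in DH and CN -0.0592 to 0.111. All 4 DH and CH values were above 0, the highest being that of DH 2 and CH 2. Values for arrays of unlike number are not given here, so a factor shared by same-numbered arrays was not tested. The main fit did not take the numbers as pairs, and the block setting is the fit that uses them.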

Additional observations from a re-analysis of the deposited data

Results flagged for a closer look

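A test for a lone distant array was made in the DH and CH groups for each of the 38 tested proteasome genes, 76 groups in all, and chance flags about 1 in 20. It singled out 3. Psmd9, the base chaperone, was highest on DH 3 with a signal of 1439.2, against 751.3 to 830.5 on the other DH arrays, and this is the array with the low spike signal. Psma4, an alpha subunit, was highest on CH 2 with 5257.9, against 4788.1 to 4859.3 on the other CH arrays. Psme4, the nuclear activator, was lowest on CH 2 with 2453.8, against 2864.0 to 2924.9 on the other CH arrays.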

How the results depend on the processing

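Under all alternatives planned or listed, 0 proteasome genes passed in each comparison, with 1 exception among the settings tried. Without DH 1 and DH 2 together, a setting added after seeing the data that also raised the calls among all genes to 158 and 348, 1 gene passed between DH and CH (Psmc5, limma adjusted p = 0.0309) and 2 passed between DH and CN (Psmc3 at 0.55, limma adjusted p = 0.0269, and Psmc5 at 0.68, limma adjusted p = 0.0298). In both genes DH 1 and DH 2 are the lowest DH arrays, so leaving them out had to raise these differences. In the other settings the smallest limma adjusted p of a member ranged between 0.0941 (without DH 1) and 0.339 (without DH 4) for DH minus CH, between 0.572 and 0.996 for CH minus CN, and between 0.0862 and 0.273 for DH minus CN. With the replicate number as a block, 0 members passed in each comparison, and 31 of all genes did between DH and CH against 29 without it. Over all genes, the number called between DH and CH ranged from 0 to 64 in the planned settings.

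Signs under the alternatives were followed only for the members named by rule, and those of the other members are not given here. Among the members followed, some differences reversed their sign, and the cause was not tested. Without DH 3 and DH 4 these were, for DH minus CH, Psma7 -0.214, Psmb4 -0.063, Psmc3 -0.068, Psmd1 -0.109 and Psmd14 -0.084, and for DH minus CN, Psma7 -0.088, Psmb4 -0.105, Psmd1 -0.061 and Psmd3 -0.027. Without DH 1 and DH 2 they were, for DH minus CH, Psmb1 0.057, Psmb6 0.108 and Psmd10 -0.155, and for DH minus CN, Psmb5 0.002, Psmb6 0.055 and Psmd10 -0.158. Quantile normalization gave 0.008 for Psmd10 (CH minus CN), 0.006 for Psmb6 (DH minus CH) and 0.023 for Psmb5 (DH minus CN). The mean of probe sets gave 0.020 for Psmc2 (CH minus CN), -0.018 for Psma7 and 0.095 for Psmb1 (DH minus CH), and -0.042 for Psmb4 and -0.341 for Psmd9 (DH minus CN). The replicate block gave 0.036 for Psmd10 (CH minus CN) and 0.033 for Psmb5 (DH minus CN). Leaving out 1 array at a time also turned signs. For CH minus CN, Psma1 ranged from -0.036 to 0.133, Psmb6 from -0.103 to 0.016, Psmd7 from -0.086 to 0.068, Psmd10 from -0.126 to 0.075 and Psmd14 from -0.029 to 0.243. For DH minus CH, Psma7 ranged from -0.054 to 0.124, Psmb1 from -0.05 to 0.036, Psmb5 from -0.091 to 0.014, Psmb6 from -0.066 to 0.065 and Psmd10 from -0.069 to 0.112. For DH minus CN, Psmb4 ranged from -0.008 to 0.162, Psmb5 from -0.057 to 0.047, Psmb6 from -0.123 to 0.013, Psmb7 from -0.053 to 0.011, Psmd3 from -0.032 to 0.128 and Psmd10 from -0.103 to 0.108.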
